A study of Mus musculus with 4 samples.

Results

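The genes described here are 9 transcription factors and cofactors that set the identity of cortical projection neurons: Bcl11b, Bcl11a, Fezf2, Tbr1, Sox5, Tle4, Cux1, Cux2 and Mef2c. They were chosen by name, with no measured value in the rule, as the rows of these symbols in the Illumina gene table and the isoforms of these genes in the Nanopore table. All 9 were found among 27933 gene symbols, and 45 of 31986 Nanopore isoforms belonged to them. The tissue was the combined hippocampus, cortex and ventricular zone of 1 C57BL/6 mouse at embryonic day 18, with no transgene, treatment or control group. The cells were dissociated, encapsulated with the 10x Genomics Chromium kit (version 2), and the emulsion was split into aliquots of 190 and 951 cells that were each sequenced with Illumina short reads and Nanopore long reads. The 2 aliquots are therefore technical replicates of 1 cell suspension, and every p-value below measures the spread between them and not the spread between animals. The main fits held no term for the aliquot, and fits with the aliquot as a block are given as alternatives.

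Cortical projection neurons are born from radial glia, partly through intermediate progenitors, and acquire a layer and an axonal target under mutually opposed transcription factors. Fezf2 and its effector Bcl11b (Ctip2) direct subcerebral projection neurons of the deep layers, Tbr1 and Sox5 act in corticothalamic and early born deep layer neurons, and Tle4 is a Groucho family corepressor found in corticothalamic neurons. Cux1 and Cux2 are homeodomain factors used as markers of upper layer neurons, Bcl11a (Ctip1) is a paralog of Bcl11b, and Mef2c is an activity regulated factor of maturing excitatory neurons. Several of these genes are also known from GABAergic neurons, for instance Bcl11b in striatal neurons and Mef2c and Cux2 in cortical interneurons.

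After cells with fewer than 1400 Illumina genes were removed, 186 and 935 cells remained, with 1809081 and 8295650 Illumina UMIs and 993220 and 4889148 Nanopore UMIs. Cells were clustered without the 9 genes, 35 companion genes of projection neuron identity and 11 paralogs, and classes were named from marker genes, but the genes used for clustering can vary together with the 9 factors. The classes held 20 and 86 radial glia-like cells, 24 and 94 cycling radial glia-like cells, 47 and 238 immature glutamatergic-like cells (clusters 3 and 4), 43 and 235 mature glutamatergic-like cells (clusters 0 and 7), 30 and 139 immature GABAergic-like cells, 18 and 130 mature GABAergic-like cells and 4 and 13 Cajal-Retzius-like cells in the 190 cell and 951 cell aliquots. Markers of another class outnumbered their own among the leading genes of clusters 3 and 7, so these clusters are also given by number. The GABAergic classes had different leading genes, Ebf1, Isl1, Zfhx3 and Foxp2 in the immature and Sst, Maf, Nxph1 and Npy in the mature class. Lineage and maturity therefore cannot be told apart between these classes. Of the kept cells, 12 barcodes occurred in both aliquots, and 11 of these fell in the same class in both. Whether they stand for the same cells was not tested. Called doublets numbered 9 (4 and 5), and 5 cells held 3 or more UMIs of 4 microglial markers. Erythroid markers summed to between 442 and 646 CPM (UMIs of a gene relative to all UMIs of the class, times 1e6) in every class. The microglial markers summed to 203 CPM in radial glia-like cells of the 951 cell aliquot and were near 0 elsewhere. Markers of oligodendrocyte precursors (Olig1, Olig2 and Pdgfra) summed to 135 and 156 CPM in cycling radial glia-like cells. They were at 72.9 and 57.5 CPM in radial glia-like cells and at most 4.95 CPM elsewhere. In the cycling class 3 and 8 cells, and in the radial glia-like class 1 and 5 cells, held 3 or more of these UMIs. The part of these cells in the levels and shares below was not tested.

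The transcripts of the 9 genes were read first from the Nanopore UMIs, each assigned by the authors to 1 Gencode isoform on a full match of its exons. Cux1 lies at chr5:136248135-136567490 on the minus strand (mouse build GRCm38, as all coordinates here), and 363 of its UMIs were assigned. This locus encodes both the homeodomain protein CUX1 and, through other 3′ exons, the Golgi protein CASP that lacks the cut repeats and the homeodomain. Of the 363 UMIs, 310 (85.4%, exact binomial 95% interval 81.3 to 88.9) belonged to 3 isoforms that end at the coding end of Cux1-211, the CASP type. Only 11 (3.03%, 1.52 to 5.36) belonged to isoforms that end as Cux1-204 does, the homeodomain type, and 42 (11.6%) were annotated as retained intron. The share of the CASP type was 81.0% in the 190 cell aliquot and 86.2% in the 951 cell aliquot, so both aliquots gave the same order. Homeodomain type UMIs numbered 3 in radial glia-like, 2 in mature glutamatergic-like and 1 in immature glutamatergic-like cells, against 23, 47 and 114 of the CASP type. Cux1-211 is 2831 bases long and Cux1-204 is 10945 bases long. This difference in length moves with the result, and its part in the shares was not tested. The Illumina counts do not separate the isoforms, so every Cux1 level below covers both proteins.

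The point where these transcripts part is shown because it decides which protein a Cux1 UMI stands for. Both share their coding exons up to the last base of exon 14, at position 136314307. Cux1-211 then continues with the exon chr5:136257913-136258040, and Cux1-204 with the exon chr5:136312643-136313314. Lower case letters are the last coding bases of the shared exon and capitals the first bases of the next exon (Gencode transcripts, 5′ to 3′ on the minus strand). The pair has 1249 coding bases in common, 61.6% of those of Cux1-211 and 27.7% of those of Cux1-204.
Cux1-211: acagtgacctgagcgGGCGCTGTGCGGAGC
Cux1-204: acagtgacctgagcgGGTCAGCCAGGAGAA

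Bcl11b (chr12:107910403-108003602, minus strand) was assigned 152 UMIs. Bcl11b-203, which skips a coding exon of 216 bases at chr12:107965672-107965887 and has 2436 coding bases, held 74.3% of them (66.6 to 81.1). The longer Bcl11b-201, with 2652 coding bases, held 25.0% (18.3 to 32.7). With untranslated bases counted, Bcl11b-201 has 5223 exon bases that Bcl11b-203 lacks, and Bcl11b-203 has 0 of its own. The part of this difference in length in the shares was not tested. By aliquot the share of Bcl11b-203 was 58.8% of 17 UMIs and 76.3% of 135 UMIs. The exon in question is marked by capitals at the junction after exon 2, where Bcl11b-203 goes on to the exon chr12:107915222-107917414.
Bcl11b-203: aggagaacattgcagGTAAAGATGAGCCTT
Bcl11b-201: aggagaacattgcagGGCCGTGCAGGCCTG

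Mef2c (chr13:83504034-83667080, plus strand) was assigned 744 UMIs, of which Mef2c-222 held 49.1% (45.4 to 52.7) and Mef2c-213 held 40.5% (36.9 to 44.1). They differ by 96 coding bases through the choice of the acceptor of exon 11, at 83662307 in Mef2c-222 and at 83662403 in Mef2c-213, which includes or removes the stretch known as the gamma region. In mature glutamatergic-like cells the longer form Mef2c-222 held 55.2% of 96 UMIs and 48.5% of 390 UMIs in the aliquots, and in mature GABAergic-like cells 50.0% of 32 and 55.2% of 125. Both forms were present in both of these classes, which held the most Mef2c. Capitals mark the first bases after the alternative acceptor.
Mef2c-222: cctcagtcagttgggAGCTTGCACTAGCAC
Mef2c-213: cctcagtcagttgggAGACCGTACCACCAC

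Bcl11a (chr11:24078056-24174123, plus strand) was assigned 922 UMIs. Bcl11a-203, a short form with 729 coding bases, held 57.5% (54.2 to 60.7), Bcl11a-204 held 17.2% and the retained intron transcript Bcl11a-205 held 10.8%. Of the forms with a longer coding sequence, Bcl11a-201, with 2319 coding bases, held 11.6% (9.61 to 13.9). Bcl11a-202, with 2505 coding bases in a transcript of 5989 bases, held 2.82%, and 2230 coding bases are common to both. The part of transcript length in the shares of Bcl11a was not tested. Sox5 (chr6:143828425-144781977, minus strand) gave 75.0% Sox5-201 among 256 UMIs and 46 UMIs of Sox5-205, which has 252 fewer coding bases, with 5.08% in the retained intron transcript Sox5-207. Tbr1 (chr2:61802930-61814114, plus strand) was nearly a single form, with 94.3% of 192 UMIs in Tbr1-201. All 37 UMIs of Tle4 (chr19:14448150-14598051, minus strand) were Tle4-201. Cux2 (chr5:121856366-122050102, minus strand) had 14 UMIs over 5 isoforms, with 5 of them in Cux2-202, 3 in the retained intron transcript Cux2-211 and 2 each in Cux2-201, Cux2-206 and Cux2-210, too few to order them.

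Fezf2 (chr14:12342094-12348189, minus strand) was assigned 572 UMIs, 74.0% Fezf2-201 (70.1 to 77.5) and 25.9% Fezf2-203 (22.3 to 29.7). Both hold the same 1365 coding bases, and Fezf2-203 keeps a stretch of 348 bases of the 5′ untranslated region, chr14:12345239-12345586, that is spliced out of Fezf2-201, while Fezf2-201 has 115 exon bases of its own. In mature glutamatergic-like cells Fezf2-203 made up 23.1% of 65 UMIs in the 190 cell aliquot and 15.8% of 323 UMIs in the 951 cell aliquot. Immature glutamatergic-like cells had 16.7% of 18 and 24.0% of 50 UMIs, while cycling radial glia-like cells had 57.1% of 7 and 59.1% of 22 UMIs. Radial glia-like cells had 3 of 17 UMIs (17.6%, 3.80 to 43.4) in the 190 cell and 47 of 70 UMIs (67.1%, 54.9 to 77.9) in the 951 cell aliquot, the latter from 32 cells. In the clustering that set intermediate progenitor-like cells apart, radial glia-like cells had 3 of 10 and 39 of 51 UMIs (76.5%, 62.5 to 87.2). Without the called doublet of the 190 cell aliquot its share was 3 of 14 UMIs (21.4%, 4.66 to 50.8) and, in the second clustering, 3 of 7 UMIs (42.9%, 9.90 to 81.6), and the latter interval overlapped that of the 951 cell aliquot. The edgeR test of isoform usage in radial glia-like against mature glutamatergic-like cells passed for Fezf2 (adjusted p = 0.00262). It called 1 of the 4 factors that could be tested, beside 19.9% of 608 genes. The call was lost without the 951 cell sum of radial glia-like cells (adjusted p = 0.971) and without that of mature glutamatergic-like cells (0.107), so it rested on that aliquot.

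**Figure D1:**
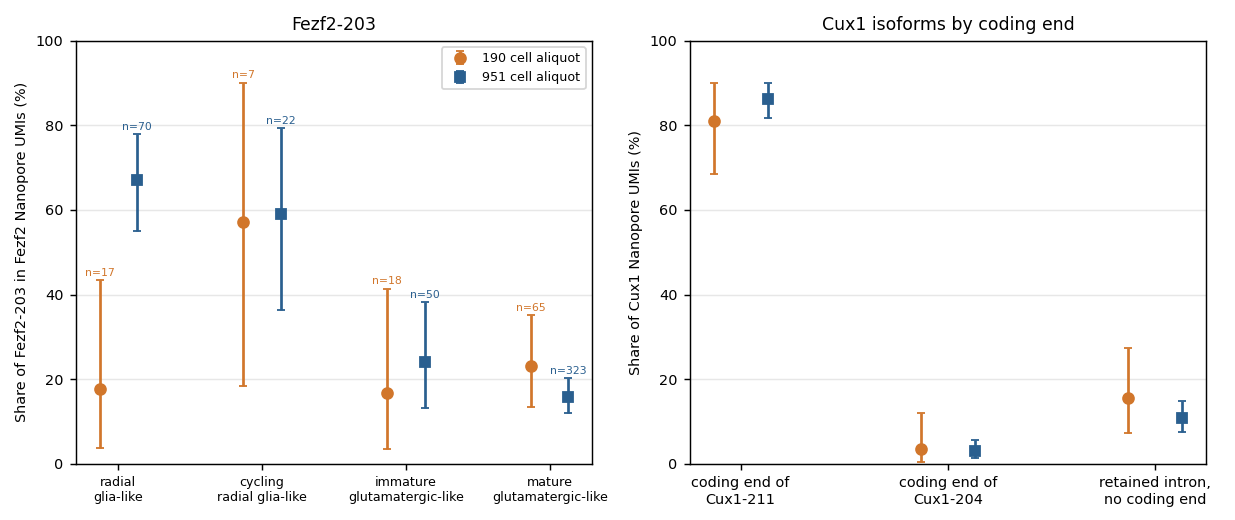
Nanopore isoform shares by aliquot with exact binomial 95% intervals. Left, share of Fezf2-203 among Fezf2 UMIs (y axis, percent) in 4 classes, with the number of UMIs above each point; the aliquots part in radial glia-like cells (17.6% and 67.1%) and lie between 15.8% and 24.0% in glutamatergic-like cells. Right, share of Cux1 UMIs by the coding end of their isoform; the end of Cux1-211 takes 81.0% and 86.2%.

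The other usage contrasts called none of these factors by edgeR. Mature against immature glutamatergic-like cells called 3.62% of 608 genes, mature GABAergic-like against mature glutamatergic-like cells 2.14% and immature GABAergic-like against mature glutamatergic-like cells 6.41%. Bcl11a, Cux1, Fezf2 and Mef2c were tested in the first of these (adjusted p = 0.805 to 0.915). Fezf2 had no Nanopore UMI in either GABAergic class, so only Bcl11a, Cux1 and Mef2c were tested in the GABAergic contrasts (adjusted p = 0.503 for Mef2c to 0.94 for Cux1). No set of isoforms of Bcl11b, Tbr1, Sox5 or Cux2 had enough UMIs for the test, and Tle4 had only 1 isoform.

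The share of molecules that reached an isoform differed by gene. Nanopore isoform UMIs amounted to 54.9% and 58.9% of the Illumina UMIs over all genes in the 190 cell and 951 cell aliquots. For Fezf2 they were 58.5% and 61.5%, for Bcl11b only 4.47% and 8.13%, and for Cux2 13.2% and 4.76%. Mef2c (16.2% and 15.7%), Bcl11a (24.7% and 27.6%) and Cux1 (25.2% and 31.4%) also lay below all genes in both aliquots. As CPM, 7 of 9 factors were lower in Nanopore than in Illumina libraries by edgeR, a contrast that called 50.5% of 9855 genes, 30.3% as lower and 20.2% as higher. Cux2 had a log2 fold change of -2.99 ± 0.37 (SE, adjusted p = 0.00184) and Bcl11b of -2.92 ± 0.20 (adjusted p = 0.00027), followed by Mef2c (-1.71), Tle4 (-1.54), Bcl11a (-0.97), Cux1 (-0.86) and Tbr1 (-0.57). Fezf2 (+0.20, adjusted p = 0.195) and Sox5 (-0.57, adjusted p = 0.0838) did not pass, though with the aliquot as a block both did (0.00903 and 4.12e-05). Without the 951 cell Illumina library or the 190 cell Nanopore library the call of Tbr1 was lost (adjusted p = 0.0891 and 0.0531), as was that of Tle4 without the 951 cell Nanopore library (0.0583), while Sox5 passed without the former libraries (0.0214 and 0.000725). The longest annotated transcripts of Bcl11b (8111 bases) and Cux2 (8784 bases) are longer than that of Fezf2 (2429 bases), and the part of transcript length was not tested.

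Levels by class were taken from the Illumina UMIs summed per aliquot and class and are given as CPM, 190 cell aliquot first. Fezf2 was at 194 and 182 CPM in mature glutamatergic-like cells, 130 and 107 in radial glia-like cells, 80.1 and 51.7 in immature glutamatergic-like cells and 38.6 and 42.7 in cycling radial glia-like cells. In immature GABAergic-like cells it was at 6.05 and 3.71 CPM, and in mature GABAergic-like cells 0 of 18 cells and 4 of 130 cells held a UMI (0 and 6.21 CPM). The factor of subcerebral identity was therefore shared by glia and glutamatergic neurons and nearly missing from GABAergic classes. Each step down this order was larger than the spread between aliquots by edgeR (adjusted p = 0.00678, 0.00283 and 8.26e-06), except that between immature glutamatergic-like and cycling radial glia-like cells (0.169) and that between the GABAergic classes (1.0).

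Bcl11b did not follow Fezf2. It was highest in immature GABAergic-like cells (515 and 636 CPM), then in mature GABAergic-like (382 and 286) and mature glutamatergic-like cells (295 and 222), and lower in immature glutamatergic-like (153 and 125), cycling radial glia-like (70.8 and 122) and radial glia-like cells (48.6 and 6.97). The aliquots of both mature classes overlapped. No neighbouring pair in this order passed the test (adjusted p = 0.0868 to 0.923). The step between the GABAergic classes passed without called doublets (log2 0.96, adjusted p = 0.00877) and with no filter on low counts (0.00641). That between the glutamatergic classes also passed in these fits (0.00473 and 0.00617) and by Nanopore counts (0.0434). In radial glia-like cells of the 190 cell aliquot 8 of the 12 Bcl11b UMIs came from a called doublet. The same cell held 31 of 41 Mef2c UMIs, 8 of 16 Sox5 UMIs and 5 of 32 Fezf2 UMIs of that sum. The GABAergic classes held no called doublet, but all classes of the fit shared 1 estimate of the spread of a gene. The radial glia-like sums therefore also entered the Bcl11b tests between other classes, and the part of this cell in them was not tested.

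Sox5, a SoxD factor that holds back the subcerebral program in early neurons, peaked in mature glutamatergic-like cells (166 and 118 CPM), above immature glutamatergic-like (72.6 and 70.2), radial glia-like (64.8 and 44.4) and cycling radial glia-like cells (32.2 and 36.8). Its aliquots disagreed in immature GABAergic-like cells (90.8 and 24.7 CPM) and were low in mature GABAergic-like cells (9.78 and 12.4), the last step down to which passed (adjusted p = 0.0271). Tle4 was sparse, with 222 UMIs in all. It read 36.3 and 29.7 CPM in immature GABAergic-like cells and 18.4 and 34.5 in mature glutamatergic-like cells, and its range over the other 4 classes was 6.21 to 20.3. No step in the order of Tle4 passed by edgeR (adjusted p = 0.272 to 0.993).

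Tbr1, the T-box factor of corticothalamic neurons, was at 123 and 122 CPM in immature glutamatergic-like and 55.3 and 52.8 CPM in mature glutamatergic-like cells. It was at 6.44 and 24.8 in cycling radial glia-like cells, and between 3.11 and 19.6 in radial glia-like and GABAergic classes, where the step from cycling radial glia-like to mature GABAergic-like cells did not pass (adjusted p = 0.0518), nor did those below it (0.391 and 0.398). Bcl11a had 491 and 533 CPM in immature glutamatergic-like, 351 and 370 in immature GABAergic-like, 323 and 391 in mature glutamatergic-like, 213 and 214 in cycling radial glia-like, 176 and 242 in mature GABAergic-like and 72.9 and 83.6 in radial glia-like cells. The fall from mature glutamatergic-like to cycling radial glia-like cells (adjusted p = 0.00194) and from mature GABAergic-like to radial glia-like cells (1.16e-05) passed, and the other 3 steps did not (0.222 to 1.0).

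Cux2 and Cux1 both had their highest mean level in mature GABAergic-like cells, where the Cux1 counts cover the homeodomain and the CASP type together. Cux2 was at 176 and 110 CPM there, at 35.0 and 42.2 in immature glutamatergic-like cells and at 12.9 or less in every other class of the fit, and the steps from mature GABAergic-like to immature glutamatergic-like cells (adjusted p = 0.00204) and from there to cycling radial glia-like cells (0.00161) passed. Cux1 was at 245 and 203 CPM in mature GABAergic-like cells and 223 and 187 in immature glutamatergic-like cells, which overlapped (adjusted p = 0.997). It then fell through cycling radial glia-like (145 and 141), immature GABAergic-like (115 and 105) and radial glia-like cells (89.1 and 86.2) to mature glutamatergic-like cells (55.3 and 56.6), where only the last step passed (0.0335). Mef2c was at 1490 and 1110 CPM in mature GABAergic-like and 1050 and 925 in mature glutamatergic-like cells, a difference that did not pass (adjusted p = 0.698) although the aliquots did not overlap, and at 228 or less in the other classes. Of the 9 factors, Bcl11b, Cux1, Cux2 and Mef2c thus had their highest mean level in a GABAergic-like class, and Fezf2, Sox5, Tbr1 and Bcl11a in a glutamatergic-like class of the fit. The step from the highest class to the next passed for Cux2, Fezf2, Sox5 and Tbr1. For Sox5 and Tbr1 this call was lost by DESeq2, by Nanopore counts and without some of the sums, as given below. The step did not pass in the main fit for Bcl11b, Cux1, Mef2c and Bcl11a, whose highest class is therefore not settled there. For Bcl11b it passed without called doublets and with no filter on low counts. For Tle4 the order was not settled either, as the mean of the aliquots was highest in immature GABAergic-like cells and the pooled level in mature glutamatergic-like cells (30.8 against 31.8 CPM).

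**Figure D2:**
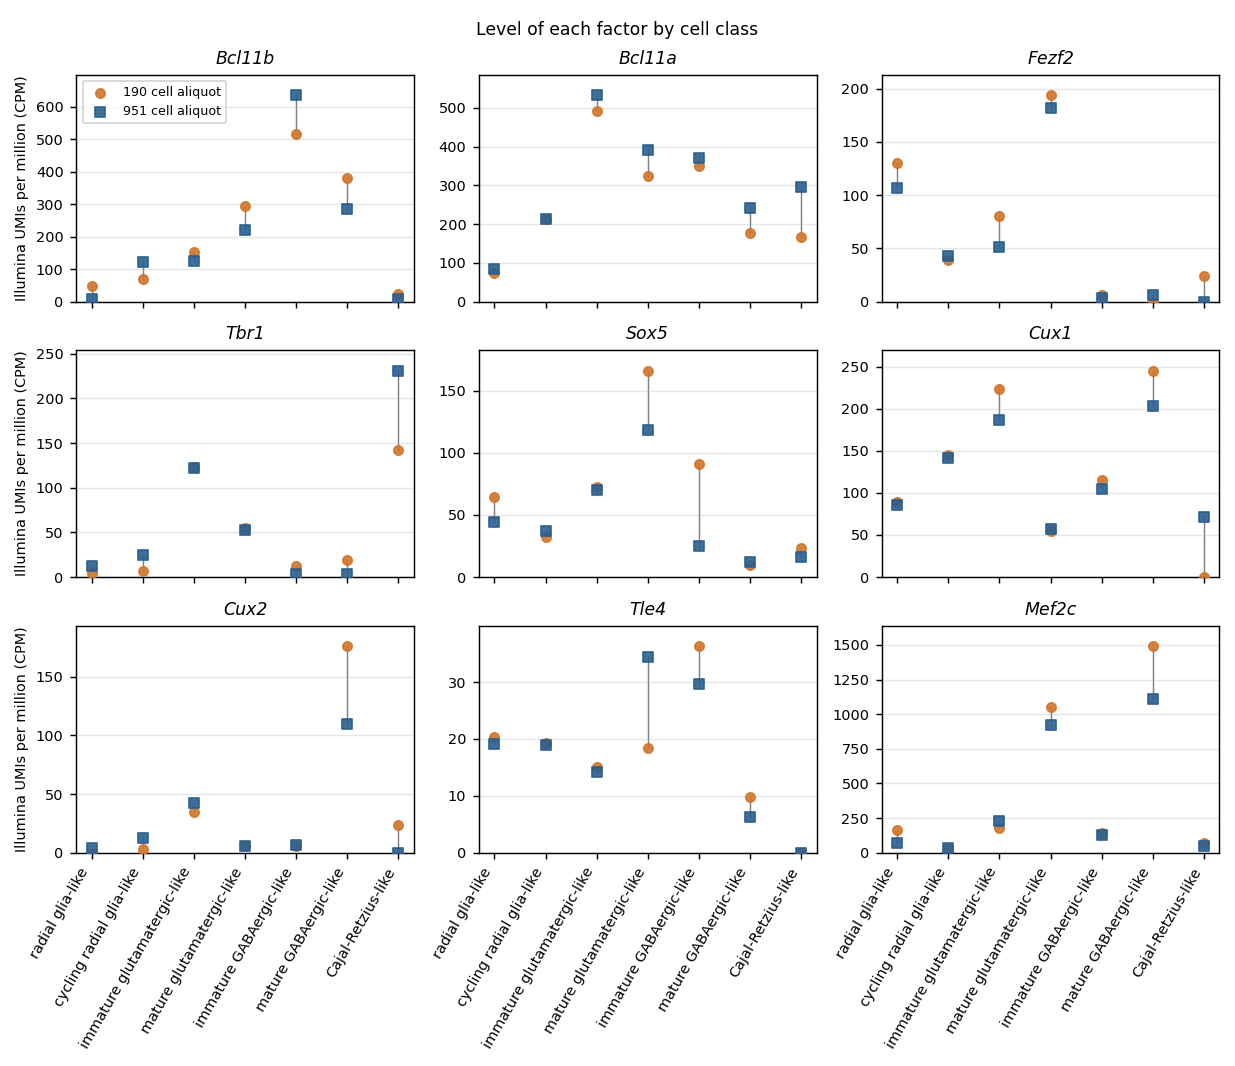
Illumina level of each factor (CPM, linear axis from 0) in 7 cell classes, with a circle for the 190 cell and a square for the 951 cell aliquot joined by a line; Cajal-Retzius-like cells (4 and 13) were not in the fit. Fezf2 reaches 194 and 182 in mature glutamatergic-like cells and at most 6.21 in GABAergic-like cells, whereas Cux2 reaches 176 and 110 in mature GABAergic-like cells.

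The step from radial glia to intermediate progenitors was read in a clustering that left out only the 9 factors, since this held a cluster of 18 and 71 intermediate progenitor-like cells that the stricter clustering did not. This clustering was chosen after the data were seen, and it used Eomes, the companion genes and the paralogs. The cluster was led by microglial genes (Ccl4, Ccl3, C1qc, Tyrobp and C1qb), followed by Eomes, Neurog2, Mfap4, Btbd17 and Sstr2. Its 951 cell sum held 3 cells with several microglial UMIs and 232 microglial marker UMIs in all. Tbr1 was at 0 and 3.51 CPM in radial glia-like cells (3 UMIs in all) and 79.7 and 78.7 CPM in intermediate progenitor-like cells, a ratio of 27.2 (counting interval 8.89 to 136). Bcl11a went from 44.4 and 62.0 to 294 and 260 CPM, with a log2 fold change of 2.28 ± 0.25 (SE, edgeR adjusted p = 1.35e-09). Sox5 went from 61.0 and 37.5 to 85.9 and 98.0 CPM (log2 1.13 ± 0.36, adjusted p = 0.0241). Cux2 went from 0 and 3.51 to 24.5 and 12.9 CPM on 3 and 12 UMIs, a ratio of 5.27 (1.42 to 29.1, adjusted p = 0.0393). These 4 of 9 factors were higher and none lower, in a contrast that called 15.2% of 8616 genes, 7.07% as higher and 8.12% as lower.

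No difference of Fezf2 passed over this step, with 116 and 105 CPM in radial glia-like and 129 and 99.6 CPM in intermediate progenitor-like cells (log2 0.01 ± 0.28). Cux1 also gave a small difference (log2 0.08 ± 0.26). Sox5 and Cux2 lost their calls without the barcodes found in both aliquots (adjusted p = 0.0552 and 0.0653), Sox5 without either 951 cell sum (0.352 and 0.508), and Cux2 without any 1 of the 4 sums (0.0937 to 0.176). Bcl11b gained a call without the called doublets (log2 3.57, adjusted p = 0.000934, against 1.89 and 0.375 with them) and without the 190 cell sum of radial glia-like cells (log2 5.30, adjusted p = 1.92e-08), while Mef2c was lower (log2 -1.58, adjusted p = 0.000234) without the 951 cell sum of radial glia-like cells. The 190 cell sum of radial glia-like cells that is then left holds the called doublet with 31 Mef2c UMIs, and without called doublets the Mef2c difference was 0.53 (adjusted p = 0.22).

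From intermediate progenitor-like to immature glutamatergic-like cells, 3 of 9 factors passed where 8.47% of genes did, 4.31% as higher and 4.17% as lower. Cux1 rose from 110 and 85.2 to 239 and 219 CPM (log2 1.26 ± 0.23, adjusted p = 0.00013) and Bcl11a to 506 and 548 CPM (log2 0.92 ± 0.21, adjusted p = 0.00266). Fezf2 fell to 73.3 and 36.1 CPM (log2 -1.24 ± 0.29, adjusted p = 0.00287). With the aliquot as a block, Tbr1 (log2 0.68, adjusted p = 0.033) and Cux2 (adjusted p = 0.0108) also passed. Mef2c had a log2 difference of 1.88 (adjusted p = 0.115), and 27 of its 50 UMIs in the 951 cell progenitor sum lay in the 3 cells with microglial UMIs. Without such cells the difference was 2.63 (adjusted p = 0.0386), and it also passed by Nanopore counts (3.69, adjusted p = 0.000192), without called doublets (7.04e-08) and with no filter (2.7e-08). By DESeq2 and by Nanopore counts the Fezf2 call was lost (0.126 and 0.0735). All 3 calls depended on a 951 cell sum: without that of immature glutamatergic-like cells Fezf2 (adjusted p = 0.457) and Bcl11a (0.0657) were lost, and without that of intermediate progenitor-like cells Cux1 (0.0705) and Bcl11a (0.105).

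Mature and immature glutamatergic-like cells differed in 6 of 9 factors, 3 in each direction, where 5.27% of 8411 genes were called, 3.04% as higher and 2.22% as lower. Mef2c was higher in mature cells (1050 and 925 against 180 and 228 CPM, log2 2.30 ± 0.25, edgeR adjusted p = 2.8e-06). So were Fezf2 (194 and 182 against 80.1 and 51.7 CPM, log2 1.67 ± 0.22, adjusted p = 1.52e-06) and Sox5 (166 and 118 against 72.6 and 70.2 CPM, log2 1.01 ± 0.27, adjusted p = 0.0197). Cux2 (log2 -2.73 ± 0.44, adjusted p = 5.23e-05) and Cux1 (log2 -1.78 ± 0.20, adjusted p = 6.16e-08) were lower in mature cells, as was Tbr1 (log2 -1.13 ± 0.30, adjusted p = 0.0182). The Illumina counts of Cux1 cover the homeodomain and the CASP type together, so its fall is not that of the homeodomain marker alone. The deep layer factors Fezf2 and Sox5 were thus higher and the upper layer marker Cux2 lower. The deep layer factor Tbr1 was lower too. Layer type and maturity therefore cannot be told apart between these classes. Bcl11b (log2 0.96, adjusted p = 0.467), Tle4 (1.05, adjusted p = 0.131) and Bcl11a (-0.46, adjusted p = 0.196) did not pass. Under the block by aliquot, Tle4 (1.14, adjusted p = 0.00753) and Bcl11a (-0.44, adjusted p = 0.00143) did, and Bcl11b passed without the called doublets (0.96, adjusted p = 0.00473).

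The median over all genes tested was -0.02. Of the 34 companion genes given here, 31 were tested in this contrast. The 6 that were higher in mature cells were led by Crym, which binds thyroid hormone (log2 4.75, adjusted p = 1.89e-12), and Tshz3 (2.98, adjusted p = 0.000366), and the 4 that were lower by the POU factors Pou3f2 (-1.97, adjusted p = 5.88e-09) and Pou3f3 (-1.51, adjusted p = 3.58e-06), which are used by upper layer neurons. The call of Tbr1 was lost without cluster 7 (adjusted p = 0.0691), by DESeq2 (0.68), by Nanopore counts (0.05) and without any 1 of the 4 sums (0.0622 to 0.242), and that of Sox5 without the shared barcodes (0.0552), by DESeq2 (0.431), by Nanopore counts (0.202) and without 3 of the 4 sums, the 190 cell sum of mature (0.116) and both sums of immature cells (0.0561 and 0.215). The call of Mef2c was lost when cells were clustered with all variable genes (adjusted p = 0.0911) or with only the 9 factors left out (0.103).

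**Figure D3:**
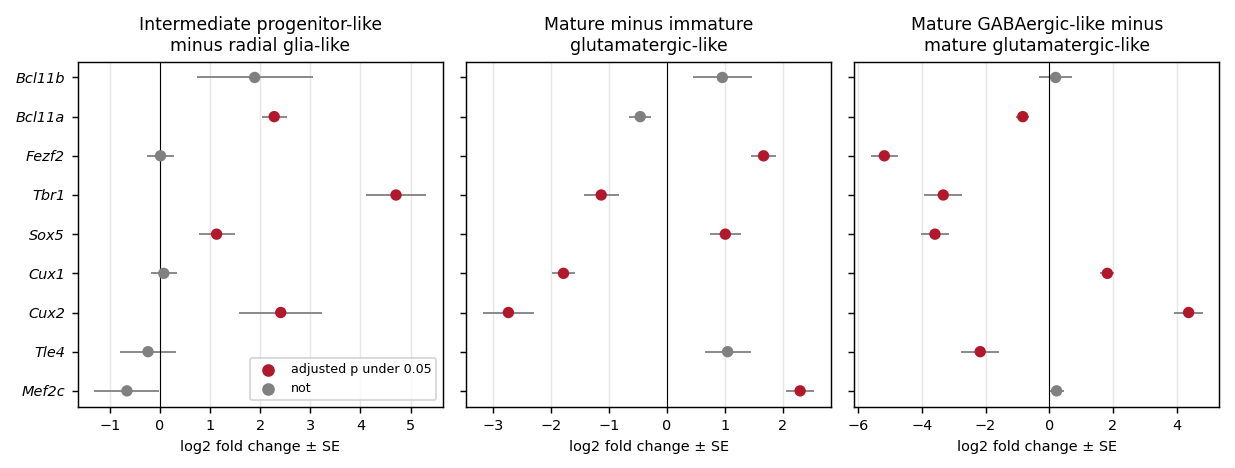
Log2 fold change ± SE of each factor (x axis) in 3 contrasts of the edgeR fits, red where the adjusted p was under 0.05 and grey where it was not. The SE is the absolute log2 fold change over the square root of the F statistic. Mef2c, Fezf2 and Sox5 lie to the right and Cux1, Cux2 and Tbr1 to the left in mature against immature glutamatergic-like cells.

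The mature glutamatergic-like class joined clusters of different content. Cluster 0 (36 and 173 cells) had 1300 and 1320 CPM of Mef2c, whereas cluster 7 (7 and 62 cells) had 18.8 and 56.4 CPM. Cluster 7 was led by Crym, Nrp2, Slit3, Cck and Lhx9, with Crym at 516 and 566 CPM and Lhx9 at 75.1 and 76.8 CPM, and is left without a further name. Between them, 3 of 9 factors were lower in cluster 7, where 3.11% of 7520 genes were called (1.86% higher and 1.25% lower): Mef2c (log2 -4.83 ± 0.33, adjusted p = 1.16e-12), Cux1 (-2.80 ± 0.41, adjusted p = 1.44e-06) and Sox5 (-1.31 ± 0.30, adjusted p = 0.0045). Fezf2 (216 and 191 against 188 and 178 CPM) and Bcl11b (385 and 313 against 273 and 181 CPM) were as high in cluster 7 as in cluster 0 or higher, without passing (adjusted p = 1.0 and 0.827). These are summed levels: a Fezf2 UMI was found in 44.5% (37.6 to 51.5) of cells of cluster 0 and 87.0% (76.7 to 93.9) of cluster 7. Median depths were 10675 and 13549 UMIs, and the part of depth in these shares was not tested. Of the companions 7 were higher in cluster 7 (Emx2, log2 3.45, and Crym, 2.12, the largest) and 7 lower, with no Foxp2 UMI (at least 3.31-fold lower at 3 UMIs over the cluster) and 1 of Tshz3 (ratio 38.9, 6.81 to 1550). With the aliquot as a block, Tbr1 (adjusted p = 0.0295) and Tle4 (0.0259) were lower in cluster 7 too. Without the 951 cell sum of cluster 7 the calls of Cux1 (adjusted p = 0.232) and Sox5 (0.0732) were lost, and that of Sox5 also without the 190 cell sum of cluster 0 (0.0667), by DESeq2 (0.236) and by Nanopore counts (0.425).

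Set against the immature cluster 4 (26 and 116 cells), cluster 0 differed in 7 of 9 factors, beside 2.33% of genes (1.22% higher and 1.1% lower). Fezf2 (log2 2.36 ± 0.29, adjusted p = 6.59e-08), Mef2c (1.98 ± 0.26, adjusted p = 4.43e-06), Sox5 (1.77 ± 0.30) and Tle4 (2.43 ± 0.56, adjusted p = 0.00741) were higher in cluster 0. Cux1 (-1.53 ± 0.25, adjusted p = 3.3e-05), Cux2 (-2.24 ± 0.51) and Tbr1 (-1.15 ± 0.29) were lower. Only Fezf2, Mef2c and Cux1 kept their calls without each of the 4 sums, and 3 to 7 factors were called in these fits: Tle4 and Cux2 were lost without either 951 cell sum (adjusted p = 0.433 and 0.491, and 0.304 and 0.218, for cluster 4 and cluster 0), Sox5 without that of cluster 4 (0.0873), and Tbr1 without that of cluster 4 (0.432) or either sum of cluster 0 (0.0793 and 0.311). Under the block Bcl11a was lower as well (-0.70, adjusted p = 2.66e-06).

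Between the immature glutamatergic-like clusters, cluster 4 had more Mef2c than cluster 3 (281 and 395 against 36.4 and 44.4 CPM, log2 3.02 ± 0.32, adjusted p = 1.1e-07). Cluster 4 had less Fezf2 (51.2 and 31.2 against 121 and 74.3 CPM, log2 -1.24 ± 0.32, adjusted p = 0.0281). These were 2 factors beside 1.44% of genes (0.785% higher and 0.652% lower). Cluster 3 had a mean marker log2 of 0.902 for intermediate progenitors, beside 1.255 for immature glutamatergic cells. Eomes was lower in cluster 4 (log2 -3.11, edgeR adjusted p = 0.000266). The part of progenitor cells of cluster 3 in these differences was not tested. The Fezf2 call was lost without either sum of cluster 3 (adjusted p = 0.27 and 0.0529) and without the 951 cell sum of cluster 4 (0.792). With the aliquot as a block, Bcl11a was higher (0.64, adjusted p = 0.000211) and Sox5 lower (adjusted p = 0.00649) in cluster 4. Cux1 (164 and 184 CPM in cluster 3, 264 and 190 in cluster 4) and Cux2 (36.4 and 48.8, 34.1 and 36.2) were present in both immature clusters.

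**Figure D4:**
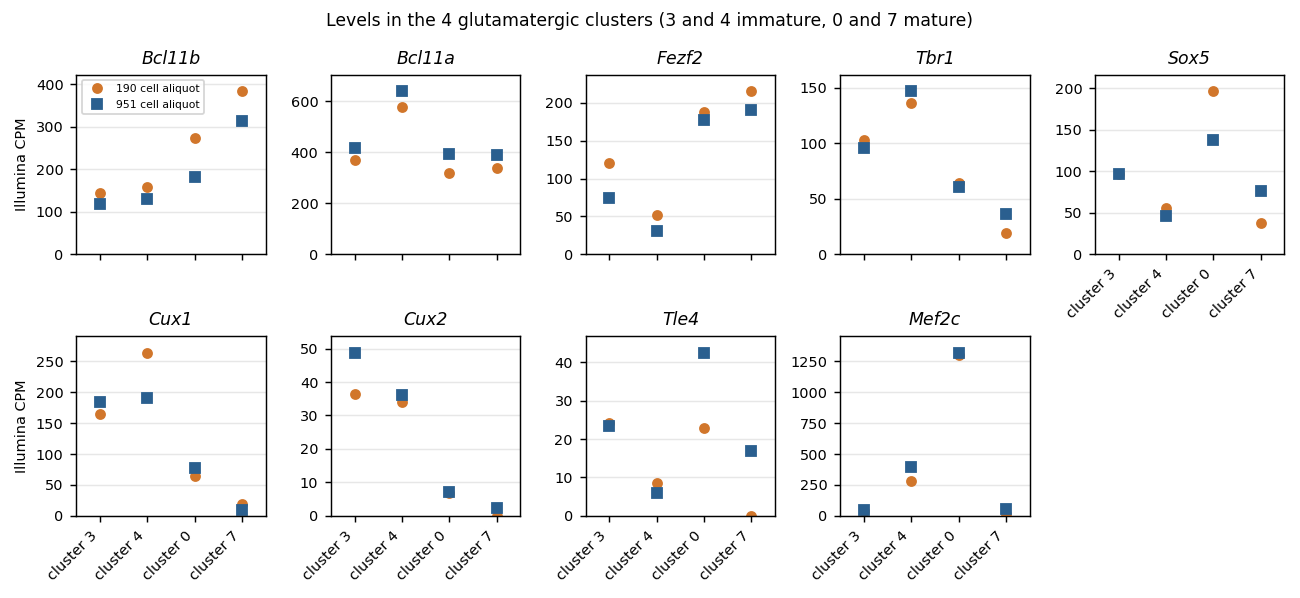
Illumina level (CPM, linear axis from 0) of the 9 factors in the 4 glutamatergic clusters, circles for the 190 cell and squares for the 951 cell aliquot. Mef2c stands at 1300 and 1320 in cluster 0 and at 18.8 and 56.4 in cluster 7. The summed level of Fezf2 is alike in both, though the share of cells with a Fezf2 UMI is not.

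GABAergic-like cells were compared with mature glutamatergic-like cells to see which factors follow the excitatory lineage. In mature GABAergic-like cells 7 of 9 factors differed, 5 lower and 2 higher, beside 9.33% of genes, 5.77% lower and 3.57% higher. Fezf2 (log2 -5.18 ± 0.42, adjusted p = 4.05e-12), Sox5 (-3.59 ± 0.44, adjusted p = 4.27e-07) and Tbr1 (-3.33 ± 0.59, adjusted p = 9.07e-05) were lower, with Tle4 (-2.17 ± 0.59, adjusted p = 0.0116) and Bcl11a (-0.83 ± 0.21, adjusted p = 0.00565). Fezf2 and Tbr1 had only 4 UMIs each in mature GABAergic-like cells, and their SE can be smaller than the counting error. Cux2 was 20.7-fold (log2 4.37 ± 0.45, adjusted p = 1.34e-09) and Cux1 3.52-fold higher (log2 1.82 ± 0.22, adjusted p = 5.65e-08). Bcl11b (0.20, adjusted p = 0.923) and Mef2c (0.23, adjusted p = 0.698) did not pass, and Mef2c had the opposite sign without cluster 7 (-0.20). Among 31 companions 17 were lower and 2 higher (Etv1, log2 1.87, adjusted p = 0.00124, and Zeb2, log2 1.05, adjusted p = 0.000234). Of those that were lower, Bhlhe22 had 674 UMIs in mature glutamatergic-like and 3 in mature GABAergic-like cells, a ratio of 52.2 (counting interval 17.8 to 254), and Lhx2 had a log2 fold change of -5.08 (adjusted p = 1.37e-11). The Tbr1 call was lost without the 951 cell mature GABAergic-like sum (adjusted p = 0.33), that of Bcl11a without the 190 cell sum of that class (0.0719) or the 951 cell glutamatergic sum (0.157), and that of Tle4 without either 951 cell sum (0.387 and 0.447).

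In immature GABAergic-like cells, 5 of 9 factors differed from mature glutamatergic-like cells, beside 9.21% of genes (5.67% lower and 3.54% higher). Fezf2 (log2 -5.46 ± 0.41, adjusted p = 5.28e-13), Tbr1 (-3.33 ± 0.55), Mef2c (-2.87 ± 0.27, adjusted p = 1.25e-07) and Sox5 (-1.79 ± 0.34) were lower and Cux1 was higher (0.92 ± 0.22, adjusted p = 0.00463). In immature GABAergic-like cells Fezf2 and Tbr1 had only 4 and 5 UMIs. Among the companions 4 were higher, led by Foxp2 (4.52) and Etv1 (1.95), and 14 lower, with Emx1 at 208 against 1 UMI (ratio 63.1, 11.2 to 2500). Bcl11b differed 2.23-fold without passing (log2 1.16, adjusted p = 0.26), and passed with the aliquot as a block (1.27, adjusted p = 0.0222), by the Nanopore counts (1.48, adjusted p = 0.00302) and without doublets (1.17, adjusted p = 0.000178). Cux1 lost its call without cluster 7 (adjusted p = 0.148), without either mature glutamatergic-like sum (0.0625 and 0.0517) and without the 951 cell GABAergic-like sum (0.15). Without the same GABAergic-like sum Sox5 (-0.64, adjusted p = 0.52) and Tbr1 (0.167) were lost, which left 2 factors called.

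The GABAergic classes differed from each other in 5 of 9 factors, beside 2.83% of genes (1.51% higher and 1.32% lower), in a contrast that cannot tell lineage from maturity. Immature GABAergic-like cells had less Cux2 (log2 -4.26 ± 0.54, adjusted p = 7e-07), Mef2c (-3.10 ± 0.27, adjusted p = 1.77e-07) and Cux1 (-0.89 ± 0.23, adjusted p = 0.0168), and more Tle4 (2.27 ± 0.63, adjusted p = 0.0376) and Bcl11a (0.82 ± 0.22, adjusted p = 0.0228). Of the companions Foxp2 (log2 4.20) and Foxp1 (3.87), known from striatal projection neurons, were the highest of 5 higher genes, and Tshz3 (-3.12) and Zeb2 (-2.10) the lowest of 3 lower. With the aliquot as a block Sox5 was also higher (1.66, adjusted p = 0.0312), as it was without the 951 cell immature sum (2.94, adjusted p = 0.00145). Only Cux2 and Mef2c kept their calls without each of the 4 sums. Cux1 and Tle4 were lost in all 4 fits (adjusted p = 0.0505 to 0.296 and 0.0708 to 0.559), and Bcl11a without the 190 cell mature or the 951 cell immature sum (0.229 in both).

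Single cells of the mature glutamatergic-like class were read for which factors were found together. Shares of cells are descriptions with no test, and cells of an aliquot are not replicates. Among 145 cells with a Bcl11b UMI, 73.1% (exact binomial 95% interval 65.1 to 80.1) also had Fezf2, against 35.3% (27.3 to 44.1) of 133 cells without. Sox5 was found in 66.9% against 26.3% and Tle4 in 24.8% against 6.02%. Cux1, whose Illumina UMIs do not separate the homeodomain type from the CASP type, ran the other way, in 23.4% (16.8 to 31.2) against 50.4% (41.6 to 59.2). Tbr1 stood between, at 44.8% against 32.3% with overlapping intervals, and Cux2 was in 3 against 11 cells.

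The clusters of the class entered these shares unequally, since Bcl11b was found in 44.0% of 209 cells of cluster 0 and 76.8% of 69 cells of cluster 7. Within cluster 0, Fezf2 was found in 65.2% (54.6 to 74.9) of cells with and 28.2% (20.3 to 37.3) of cells without Bcl11b, Sox5 in 77.2% against 27.4%, Tle4 in 31.5% against 5.13%, Tbr1 in 53.3% against 30.8% and Cux1 in 29.3% against 55.6%. In cluster 7 the shares lay close together for Fezf2 (86.8% of 53 against 87.5% of 16 cells), Tle4 (13.2% against 12.5%) and Cux1 (13.2% against 12.5%). There Sox5 was in 49.1% against 18.8% and Tbr1 in 30.2% against 43.8%, with overlapping intervals. The difference between the clusters was not tested.

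Cells with a Bcl11b UMI were slightly deeper (median 11890 against 10690 UMIs). With every cell thinned to 3000 UMIs, which left out no cell, Fezf2 was in 50.5% against 25.4%, Sox5 in 45.5% against 15.3%, Tle4 in 14.9% against 5.08% and Cux1 in 4.95% against 23.2%. The sign of these differences was the same in each aliquot, full or thinned, with Cux1 at -7.40 percentage points in the 190 cell and -31.1 in the 951 cell aliquot. GABAergic-like cells, which should lack Fezf2 and Tbr1, gave the background, with Fezf2 in 2.70% of mature and 2.37% of immature GABAergic-like cells and Tbr1 in 2.70% and 2.96%, at median depths of 4711 to 5641 UMIs.

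In immature glutamatergic-like cells the contrasts were smaller. This class joined clusters 3 and 4, with median depths of 6991 and 8259 UMIs against 10675 and 13549 in clusters 0 and 7. The parts of depth and of the joined clusters in these shares were not tested. Fezf2 was found in 31.7% of 120 cells with and 21.2% of 165 cells without Bcl11b, Sox5 in 35.0% against 37.0%, Tle4 in 8.33% against 10.3% and Cux1 in 55.8% against 67.3%. The intervals of these 4 pairs overlapped in this class. The difference between the classes was not tested. Tbr1 and Fezf2 were found together more often in mature cells (Fezf2 in 63.9% of 108 cells with and 49.4% of 170 cells without Tbr1) and less often in immature cells (20.1% of 139 against 30.8% of 146), and the 190 cell aliquot had the opposite sign for mature full cells (-6.70 percentage points).

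**Figure D5:**
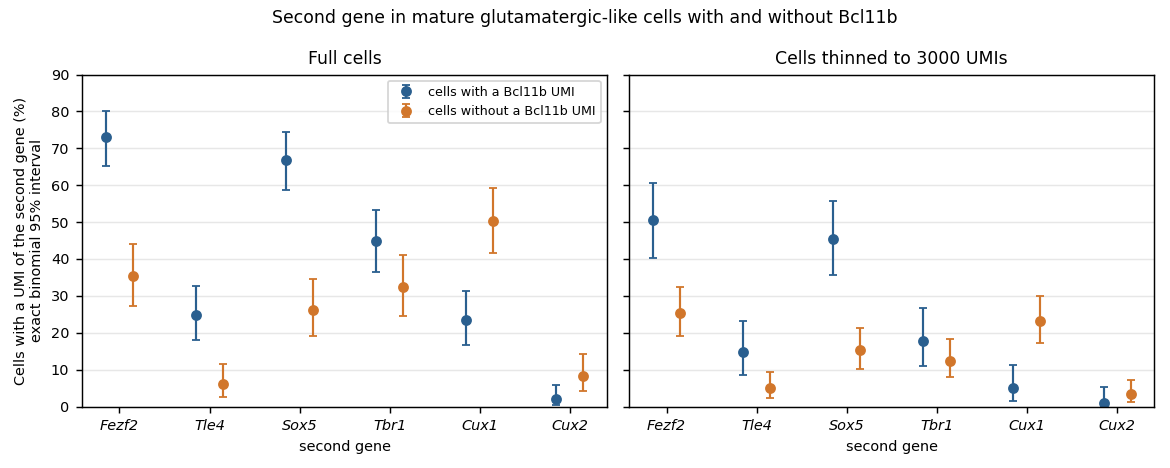
Share of mature glutamatergic-like cells with a UMI of a second gene (y axis, percent, exact binomial 95% interval, both aliquots) among cells with and without a Bcl11b UMI, for full cells (left) and cells thinned to 3000 UMIs (right). Fezf2, Sox5 and Tle4 lie higher and Cux1 lower in cells with Bcl11b in both panels.

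The paralogs were read for comparison with the same scale. Fezf1 and Mef2b had no UMI in any class. Eomes, the T-box paralog of Tbr1 in intermediate progenitors, was among the genes that formed the intermediate progenitor-like cluster, so its levels there are a description: 61.0 and 67.9 CPM in radial glia-like, 325 and 400 CPM in intermediate progenitor-like and 3.18 and 12.5 CPM in immature glutamatergic-like cells, where Tbr1 was at 124 and 130 CPM. In the stricter clustering, which set no such cluster apart, Eomes was highest in radial glia-like cells among the classes of the fit. It was at 190 and 224 CPM there, in 41.5% of these cells. Sox6, the SoxD paralog of Sox5, differed the other way between the mature classes. It had 78 UMIs in mature GABAergic-like and 1 UMI in mature glutamatergic-like cells (ratio 336, counting interval 58.5 to 13400). Sox6 was also found in radial glia-like cells (96 UMIs, 51.9% of cells), cycling radial glia-like cells (42 UMIs) and immature glutamatergic-like cells (16 UMIs). Mef2a was also higher in mature GABAergic-like cells (log2 1.44, adjusted p = 0.00385), while the difference of Mef2c did not pass. Of 8 paralogs tested between mature and immature glutamatergic-like cells, Eomes, Sox6 and Tle1 were lower in mature cells and the others did not pass.

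The genes whose profiles were most like those of the factors were found by Pearson's r of log2(CPM + 10) over 12 points, the 2 aliquots of 6 classes, among 5862 genes. Points of a class share their cells' identity and points of an aliquot their library, so r is a description. Mef2c was most like Pcsk1n (0.963), Grin2b (0.955) and 1500011B03Rik (0.939), and Bcl11a most like Cd24a (0.957), Sbk1 (0.955) and Tagln3 (0.954). Bcl11b was most like Tmsb10 (0.946), Hdac2 (0.935) and Srrm3 (0.93), and Tbr1 most like Kcnq3 (0.943), Slf1 (0.936) and Ttc28 (0.934). Fezf2 had Nop10 (0.923) and Prmt8 (0.91) among its nearest. Sox5 was nearest to 1110008P14Rik (0.923), Dok5 (0.902) and Fam3c (0.893), Cux1 to Cited2 (0.92), Eif4g2 (0.889) and Phip (0.872), and Cux2 to Elavl2 (0.913), Tbc1d17 (0.91) and Rsrc2 (0.904). Tle4 had the weakest neighbours (Epha4, 0.79, the companion Foxp1, 0.766, and mt-Nd1, 0.761), on 222 UMIs. None of the other neighbours named here was a companion gene or a paralog.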

How the data were processed

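UMIs were measured in 2 aliquots of 1 emulsion by 2 platforms. The values the authors deposited are UMI counts without normalization, by gene for Illumina (Cell Ranger 2.0, mm10) and by Gencode vM18 isoform for Nanopore (minimap2, Sicelore, barcodes guided by the Illumina data, full exon match within 2 bases). UMIs that matched no single isoform are not in the second table, which can lower a gene's count. Intervals cover counting error only.

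From these counts, cells with at least 1400 genes were clustered with Seurat 5.3.0 (2000 variable genes, 11 dimensions, resolution 0.8) after anchor integration. Counts were summed per aliquot and class and tested with edgeR 4.0.16 (quasi-likelihood, TMM, filterByExpr, Benjamini-Hochberg over all genes, threshold 0.05), isoform usage with diffSpliceDGE. The SE of a log2 fold change was derived from the test, as its absolute value over the square root of the F statistic. Where a group holds few UMIs, this SE can be smaller than the counting error. Doublets were called with Scrublet and kept in the main fits. The scripts were tested on simulated data. Alternatives were the aliquot as a block, DESeq2 1.42.0, no filter, other clusterings, Nanopore counts, thinned cells and left out cells or sums. Chosen after the data were seen were the clustering that left out only the factors (with the intermediate progenitor-like contrasts), the contrasts of clusters by number, and the fits without shared barcodes, clusters 3 or 7 or cells with microglial UMIs, the shares of cells within clusters, and leaving a factor without Nanopore UMIs out of usage tests. Positions and junctions came from Gencode on GRCm38.

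The aliquot pairs the samples, as sums of an aliquot share a library: deviations from group means correlated at 0.216 to 0.434 over 15 pairs of classes and 0.689 for the platforms. The main fits leave this pairing out, so a result that did not pass in them can pass with the block. Named are all 9 factors, their 3 most similar genes, isoforms with at least 5% of UMIs, the 2 companions with the largest called change in each direction, and genes named for a count. Some items of these lists, and the comparison that rests on one of them, are not reported here. The factors and gene lists were chosen with earlier results of these data known.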

Additional observations from a re-analysis of the deposited data

Results flagged for a closer look

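Cajal-Retzius-like cells, the early born Reln neurons of the marginal zone, entered no fit because the 190 cell aliquot had only 4 of the 17 cells. The factors were nevertheless above the limit that a count of 0 allows (3 UMIs) for Bcl11a with 44 UMIs, Tbr1 with 35 UMIs, Cux1 with 9 UMIs and Mef2c with 9 UMIs. Tbr1 was at 142 and 231 CPM, and 12 of its 29 UMIs in the 951 cell aliquot came from 1 cell. Tle4 had 0 UMIs in the 17 cells, at least 1.72-fold lower than in immature GABAergic-like cells at a floor of 3 UMIs.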

How the results depend on the processing

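Of 1173 values of the factors under an alternative, 1012 kept their direction and side of the threshold, 92 lost a call, 40 gained one and 29 changed sign. Only differences called in the main fit can lose a call, and of their values 498 kept it and 92 lost it. None of the differences called in the edgeR fits changed sign under the alternatives run. The causes were not tested.

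The aliquot as a replicate block raised the number of factors called to 5 between immature glutamatergic-like and intermediate progenitor-like cells, 5 between clusters 7 and 0 and 4 between clusters 4 and 3, and turned Tle4 between immature GABAergic-like and mature glutamatergic-like cells (log2 -0.0112) and Fezf2 between intermediate progenitor-like and radial glia-like cells (-0.00312). Other calls that the block changed stand beside their results. DESeq2 called 2 factors between the GABAergic classes, 2 between intermediate progenitor-like and radial glia-like cells, 4 between clusters 0 and 4 and 1 between clusters 4 and 3, and turned Tbr1 between the GABAergic classes (-0.0472) and Fezf2 between progenitors and glia (-0.0161). Beside the calls named in the report, DESeq2 lost those of Bcl11a (adjusted p = 0.166), Cux1 (0.22) and Tle4 (0.461) between the GABAergic classes, Cux1 between immature GABAergic-like and mature glutamatergic-like cells (0.0852), Tle4 between the mature classes (0.264), Sox5 (0.361) and Cux2 (0.188) between progenitors and glia, Tbr1 (0.664), Tle4 (0.35) and Cux2 (0.18) between clusters 0 and 4, Fezf2 between clusters 4 and 3 (0.348), and Tbr1 (0.212) and Tle4 (0.0554) between platforms. Nanopore counts called 4 factors between the mature classes and 1 between the GABAergic classes, and turned Fezf2 between progenitors and glia (-0.136) and between clusters 7 and 0 (-0.141). In these counts Cux2 and Tle4 had only 14 and 37 UMIs over all cells. The shares of all genes called by Nanopore counts are not given here, so these counts of factors are no result about the factors. They also lost Bcl11a between the mature (adjusted p = 0.113) and the GABAergic classes (0.454), Cux1 between the GABAergic classes (0.619), Tbr1 between clusters 0 and 4 (0.218) and Fezf2 between clusters 4 and 3 (0.214). Cux1 between the GABAergic classes (0.0832) and Cux2 between progenitors and glia (0.0505) were lost with no filter on low counts, and Tle4 between the GABAergic classes with all variable genes (0.0565). With no filter 2 factors were called in isoform usage of mature glutamatergic-like against radial glia-like cells, where Mef2c was added.

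Without cluster 7, Mef2c between the mature classes (-0.195) and Tle4 (-0.212) and Cux2 (-0.217) between immature GABAergic-like and mature glutamatergic-like cells changed sign. In the latter contrast Bcl11a did so without called doublets (0.00816) and without cluster 3 (0.00734). Without called doublets Mef2c was at 0.531 between progenitors and glia, and 5 factors were called between immature glutamatergic-like cells and progenitors. Without shared barcodes 2 were called between progenitors and glia. For the fits without doublets or shared barcodes the shares of all genes called are not given here either. Clustering with all variable genes turned Tbr1 between the GABAergic classes (-0.071), as did leaving out only the factors (-0.0205).

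With each aliquot sum left out in turn, the factors called numbered 4 to 5 between mature and immature glutamatergic-like cells, 5 to 7 between the mature classes, 2 to 5 between immature GABAergic-like and mature glutamatergic-like cells, 2 to 3 between the GABAergic classes, 1 to 3 between immature glutamatergic-like cells and progenitors, 2 to 4 between progenitors and glia, 1 to 3 between clusters 7 and 0, 3 to 7 between clusters 0 and 4, 1 to 2 between clusters 4 and 3, 6 to 7 between platforms and 0 to 1 in isoform usage against radial glia-like cells. A group left with 1 sum was assumed to vary like the others. Values ran across 0 for Bcl11a (-0.207 to 0.182) and Tle4 (-0.211 to 0.788) between immature GABAergic-like and mature glutamatergic-like cells, Fezf2 (-0.520 to 4.86) and Tbr1 (-1.61 to 1.15) between the GABAergic classes, Fezf2 (-0.0561 to 0.189), Bcl11b (-0.173 to 5.30), Cux1 (-0.0548 to 0.254) and Mef2c (-1.58 to 0.448) between progenitors and glia, Bcl11a between clusters 7 and 0 (-0.221 to 0.145) and Cux2 between clusters 4 and 3 (-0.461 to 0.0257).

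In the 190 cell aliquot alone, isoform shares were 60.9% for Bcl11a-203, 9.02% for Bcl11a-201, 58.8% for Bcl11b-203, 41.2% for Bcl11b-201, 50.0% for Cux1-211, 0% for Cux2-206 and Cux2-210, 53.9% for Mef2c-222, 35.5% for Mef2c-213, 80.6% for Sox5-201 and 12.9% for Sox5-205. In cells thinned to 3000 UMIs the differences with less without Bcl11b were 25.1 percentage points for Fezf2, 9.82 for Tle4, 30.2 for Sox5 and -2.40 for Cux2, that of Cux2 with less without Cux1 was 4.80 and that of Bcl11b with less without Bcl11a was -6.50. Within cluster 0 they were 26.4 for Tle4, 49.8 for Sox5, 22.5 for Tbr1, 7.22 for Cux2 by Cux1 and -27.2 for Bcl11b by Bcl11a, and within cluster 7 -0.70 for Fezf2, 0.70 for Tle4 and for Cux1, 30.3 for Sox5, -13.6 for Tbr1, -4.36 for Cux2, -3.33 for Cux2 by Cux1 and 18.1 for Bcl11b by Bcl11a.

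Counts over all genes are given for the main fit, DESeq2, the block and the range with 1 sum left out. They were 443, 134, 1234 and 191 to 310 between mature and immature glutamatergic-like cells, 785, 358, 1271 and 334 to 659 between the mature classes, 775, 329, 1450 and 333 to 623 between immature GABAergic-like and mature glutamatergic-like cells, 238, 98, 490 and 83 to 220 between the GABAergic classes, 730, 261, 1276 and 231 to 645 from progenitors to immature cells, 1309, 596, 1883 and 592 to 1196 from glia to progenitors, 234, 103, 490 and 65 to 202 for clusters 7 and 0, 175, 59, 558 and 49 to 101 for clusters 0 and 4, 108, 50, 331 and 32 to 87 for clusters 4 and 3, and 4976, 3071, 6972 and 3697 to 5298 for the platforms. In isoform usage the counts with no filter were 201, 3, 7 and 12 against 121, 22, 13 and 39 for mature glutamatergic-like cells against radial glia-like, immature glutamatergic-like, mature GABAergic-like and immature GABAergic-like cells, with 51 to 140, 2 to 10, 0 to 12 and 3 to 31 when 1 sum was left out and 72, 20 and 69 with the block in the last 3. With 2 aliquots of 1 mouse, Cux2 and Tle4 (227 and 222 UMIs in all) and all classes of the 190 cell aliquot set the limits of depth.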
